A study of Homo sapiens with 12 samples.

Results

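The ubiquitin-like protein ISG15 and the enzymes that attach it to other proteins and remove it were followed across 12 RNA sequencing libraries of THP-1 cells, a human line grown from a monocytic leukemia. The 6 genes were chosen by their role in this pathway: ISG15 itself, the activating enzyme UBA7, the conjugating enzyme UBE2L6, the HERC family ligases HERC5 and HERC6, and the protease USP18. They are 6 of 62914 entries in the gene tables, and all 6 passed the filter on low counts together with 16628 genes in all. The libraries formed 4 groups of 3. Cells received 3'-3'-cGAMP at 1 μg/mL, were left untreated, or received chlorquinaldol at 20 μM or at 50 μM, with all treatments lasting 8 h. No vehicle or time is stated for the untreated cells, and whether replicates came from separate cultures is not stated, so p-values measure only the spread between these samples. The cyclic dinucleotide cGAMP is a ligand of STING, through which cells respond to DNA in the cytosol. Chlorquinaldol, a hydroxyquinoline that carries chlorine, is used as an antiseptic.

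ISG15 is made of a pair of ubiquitin-like domains and is joined to lysines of target proteins by an enzyme cascade that parallels that of ubiquitin. UBA7 activates ISG15, UBE2L6 takes it over, HERC5 is the main ligase in human cells, and USP18 cleaves it off again. HERC6 is the main ISG15 ligase in mouse. USP18 has a further role that does not need its protease activity, as it binds the type I interferon receptor subunit IFNAR2 and damps receptor signalling. All 6 genes are known as targets of type I interferon, whose receptor activates a transcription factor complex with STAT2 and IRF9 at interferon-stimulated response elements. ISG15 is also released from cells, and outside the cell it binds the integrin formed by ITGAL and ITGB2 (LFA-1).

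On GRCh38 (GENCODE 29), ISG15 (ENSG00000187608) spans chr1:1001138-1014540 on the plus strand and UBA7 (ENSG00000182179) spans chr3:49805207-49813946 on the minus strand. UBE2L6 (ENSG00000156587) lies at chr11:57551656-57568284 on the minus strand and USP18 (ENSG00000184979) at chr22:18149899-18177397 on the plus strand. HERC6 (ENSG00000138642, chr4:88378739-88443111) and HERC5 (ENSG00000138646, chr4:88457117-88506163) are neighbours on the plus strand, with 14005 bases between the end of HERC6 and the start of HERC5. The promoters of ISG15 and of these adjacent ligases are shown because all 3 genes are known interferon targets, while their windows differ in the letters of the interferon response element. The set of RefSeq promoters used here (GRCh38.p14) holds entries for 4 of the 6 genes, UBE2L6 being the fourth, and none for UBA7 and USP18. Each sequence below holds the 250 bases before the RefSeq start, 5′ to 3′ on the plus strand, at chr1:1013247-1013496 (ISG15), chr4:88456869-88457118 (HERC5) and chr4:88378602-88378851 (HERC6). These RefSeq starts lie downstream of the starts of the GENCODE spans above. The ISG15 window therefore falls inside its GENCODE span, and the HERC5 and HERC6 windows reach into theirs. Capitals mark the core of the interferon-stimulated response element, searched on both strands as GAAA, any 2 bases and GAAA again.
ISG15: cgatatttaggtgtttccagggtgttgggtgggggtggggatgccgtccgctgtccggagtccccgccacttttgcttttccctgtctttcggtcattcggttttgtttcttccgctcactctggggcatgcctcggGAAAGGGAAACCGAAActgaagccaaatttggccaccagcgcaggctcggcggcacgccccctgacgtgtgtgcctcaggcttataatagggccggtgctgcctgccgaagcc
HERC5: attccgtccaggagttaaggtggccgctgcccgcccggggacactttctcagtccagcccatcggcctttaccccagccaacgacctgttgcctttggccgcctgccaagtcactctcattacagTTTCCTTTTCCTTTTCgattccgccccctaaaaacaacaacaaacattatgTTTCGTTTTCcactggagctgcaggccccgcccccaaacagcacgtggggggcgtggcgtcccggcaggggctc
HERC6: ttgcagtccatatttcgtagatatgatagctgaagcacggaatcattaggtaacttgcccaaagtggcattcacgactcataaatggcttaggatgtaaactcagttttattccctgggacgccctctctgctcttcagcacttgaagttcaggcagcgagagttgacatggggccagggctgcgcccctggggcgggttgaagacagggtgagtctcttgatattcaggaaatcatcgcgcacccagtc
In the ISG15 promoter 2 overlapping matches lie 113 to 104 and 107 to 98 bases before the start. HERC5 has 3 matches, all on the opposite strand and so read as TTTC in the printed sequence. Of these, 2 overlap, at 125 to 116 and 119 to 110 bases before the start, and the third lies at 74 to 65 bases. The HERC6 window and both windows listed for UBE2L6 hold no match, which says only that these letters are not in those windows. Across all 35116 promoter windows of the same length, 1061 (3.02%) hold the core. The core of the gamma-activated site, searched as TTC, any 3 bases and GAA, is in 2306 windows (6.57%) and in none of the windows of these 4 genes.

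Levels are CPM (counts scaled to a common library size), on library sizes scaled by the trimmed mean of M-values, given as mean ± SD with n = 3. Log2 changes carry ± SE and come from edgeR's quasi-likelihood test, with Benjamini-Hochberg adjustment over all 16628 tested genes and a call at adjusted p below 0.05. Libraries held 17620929 to 19222607 estimated counts, and in untreated cells the lowest of the 6 genes, HERC6 and HERC5, still had 58 to 80 counts per library. Of 10 monocyte markers, 9 were at 1 CPM or more in all 12 libraries, with summed levels of 1662 to 1879 CPM with cGAMP, 1538 to 1597 CPM untreated, 1278 to 1420 CPM at 20 μM and 1363 to 1604 CPM at 50 μM. The tenth, MPO, was at 0.427 ± 0.135 CPM at 20 μM and 0.652 ± 0.196 CPM at 50 μM, against 2.57 ± 0.346 CPM untreated. Single markers moved both ways with chlorquinaldol, and ITGAM, CD14, LYZ and CEBPA were called at both doses. Not every marker moved, as CD33 had 84.5 ± 5.48 CPM at 50 μM, against 84.7 ± 0.825 CPM untreated. Markers also differed with cGAMP, where CSF1R was at 224 ± 41.9 CPM, against 115 ± 1.69 CPM untreated, and CEBPA at 248 ± 24.6 CPM, against 315 ± 10.9 CPM. ITGAM was at 182 ± 15.4 CPM at 20 μM and 185 ± 21.7 CPM at 50 μM, against 59.9 ± 0.599 CPM untreated, and CD14 at 42.7 ± 4.4 and 36.8 ± 8.20 CPM, against 19.8 ± 2.17 CPM. LYZ was at 245 ± 23.8 and 217 ± 8.30 CPM, against 472 ± 5.75 CPM untreated, and CEBPA at 171 ± 7.69 and 121 ± 9.90 CPM, against 315 ± 10.9 CPM. All 4 markers each of epithelium, fibroblasts and erythroid cells, 5 of 6 of T and NK cells and 2 of 3 of B cells were under 1 CPM in all 12 libraries. The T and NK cell marker above that was NKG7, and summed T and NK cell markers were 12.3 to 15.8 CPM at 50 μM, against 8.59 to 10.4 CPM untreated. The part of these markers in the results was not tested. These values are bulk, so a higher level per cell and a larger share of responding cells cannot be told apart. Of the libraries, replicate 3 at 50 μM was the lowest of its group for 5 of the 6 genes, so results that rest on it are also given without it. Replicate 3 at 20 μM and replicate 1 with cGAMP were each the lowest of their group for 4.

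With cGAMP all 6 genes rose, and with chlorquinaldol 5 rose and UBA7 fell at both doses. Background rates differ widely between these comparisons, which share the untreated libraries. With cGAMP 23.3% of tested genes were called (11.6% higher), at 20 μM 55.1% (27.1% higher and 28.0% lower), and at 50 μM 66.9% (32.2% higher and 34.7% lower). The median log2 change of the 6 genes was 4.35 with cGAMP, 1.32 at 20 μM and 2.14 at 50 μM, against -0.05, -0.00 and -0.03 over all tested genes. In all 3 comparisons the treated libraries of every one of the 6 genes lay entirely on one side of the untreated ones, as did those of 44.0% of tested genes with cGAMP, 61.9% at 20 μM and 70.6% at 50 μM.

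**Figure D1:**
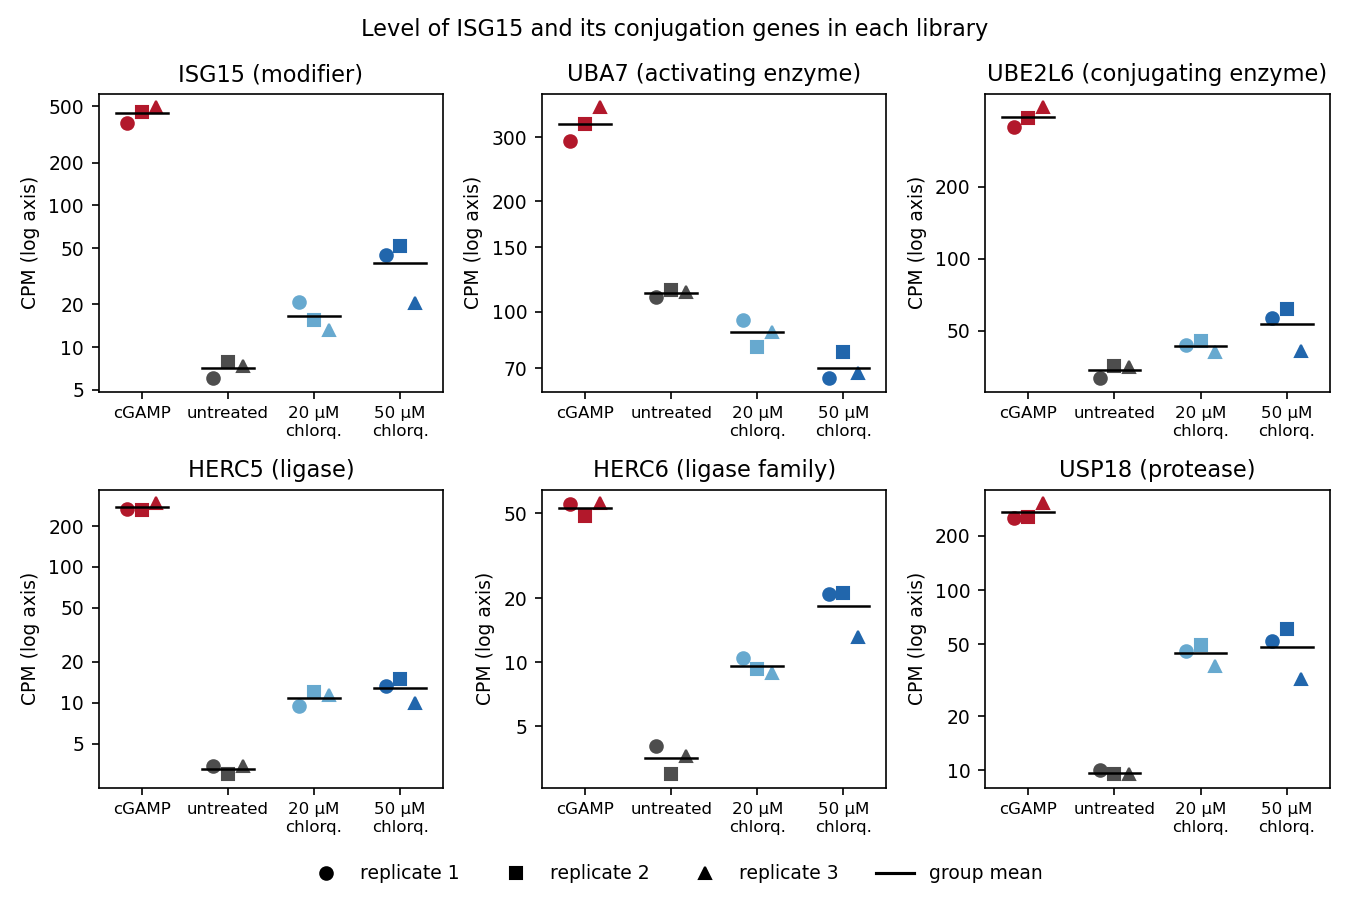
CPM (log axis) of the 6 genes in each library, in cells given cGAMP, untreated cells and cells given 20 μM or 50 μM chlorquinaldol; symbols are replicates and lines are group means (n = 3). ISG15, HERC5, HERC6, UBE2L6 and USP18 are lowest in untreated cells, whereas UBA7 is lowest at 50 μM.

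ISG15, the modifier, had 385, 460 and 495 CPM in the 3 cGAMP libraries and 6.03, 7.89 and 7.30 CPM in the untreated libraries. It had 20.7, 15.5 and 13.3 CPM at 20 μM, and 44.8, 51.5 and 20.6 CPM at 50 μM. Every treated library was above every untreated one, but replicate 3 at 50 μM lay just under replicate 1 at 20 μM, so the doses overlap. The log2 change was 5.98 ± 0.27 with cGAMP (adjusted p = 1.53e-11), 1.22 ± 0.27 at 20 μM (adjusted p = 0.00108) and 2.46 ± 0.26 at 50 μM (adjusted p = 2.35e-07). Despite that overlap ISG15 was called higher at 50 μM than at 20 μM, by 1.24 ± 0.24 on the log2 scale (adjusted p = 0.000563). The spread at 50 μM, 39.0 ± 16.2 CPM, was the widest of the 6 genes, with a highest over lowest library of 2.5.

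UBA7, the activating enzyme that loads ISG15 at the first step, moved in opposite directions with the compounds. It had 292, 325 and 363 CPM with cGAMP, against 109, 114 and 113 CPM in untreated cells. At 20 μM it had 95.01, 80.1 and 88.0 CPM, and at 50 μM 65.7, 77.3 and 67.8 CPM. No 2 groups overlap, and the groups order as cGAMP, untreated, 20 μM and 50 μM from high to low. UBA7 rose by a log2 change of 1.54 ± 0.09 with cGAMP (adjusted p = 6.75e-10), the smallest rise of the 6 genes. It fell to 87.7 ± 7.44 CPM at 20 μM and 70.3 ± 6.17 CPM at 50 μM, against 112 ± 2.64 CPM untreated, with log2 changes of -0.36 ± 0.09 (adjusted p = 0.00344) and -0.68 ± 0.09 (adjusted p = 5.15e-06). It was also called lower at 50 μM than at 20 μM (log2 change -0.32 ± 0.09, adjusted p = 0.0118). That call was lost without replicate 1 at 50 μM (adjusted p = 0.0711) or replicate 1 at 20 μM (adjusted p = 0.0579), and the 20 μM call against untreated cells was lost when the deposited FPKM were tested with limma (adjusted p = 0.0794).

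UBE2L6, the conjugating enzyme, had 355, 388 and 430 CPM with cGAMP and 31.7, 35.6 and 35.5 CPM in untreated cells. Levels with chlorquinaldol were above the untreated ones in every library but far below those with cGAMP. They were 43.7, 45.4 and 40.8 CPM with 20 μM and 56.8, 61.7 and 41.2 CPM with 50 μM. The 2 doses overlap, through replicate 3 at 50 μM. Against untreated cells the gene rose by 3.51 ± 0.13 on the log2 scale with cGAMP (adjusted p = 7.21e-13), by 0.34 ± 0.12 at 20 μM (adjusted p = 0.0262) and by 0.64 ± 0.12 at 50 μM (adjusted p = 0.00017). The 20 μM call did not hold without untreated replicate 1 (adjusted p = 0.103) or without 20 μM replicate 2 (adjusted p = 0.05).

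HERC5, the main human ligase, had the largest cGAMP change of the 6. It had 265, 263 and 295 CPM with cGAMP and 3.42, 2.97 and 3.42 CPM in untreated cells, a log2 change of 6.39 ± 0.14 or 83.8-fold (adjusted p = 2.13e-15), which ranked 15 from the top among all tested genes. With chlorquinaldol it had 9.40, 11.9 and 11.3 CPM at 20 μM and 13.2, 14.9 and 10.02 CPM at 50 μM. Both doses were clear of untreated cells and overlapped each other. The log2 change was 1.73 ± 0.15 at 20 μM (adjusted p = 7.77e-08) and 1.96 ± 0.15 at 50 μM (adjusted p = 4.86e-09).

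HERC6, its chromosomal neighbour, had 55.4, 48.4 and 55.9 CPM with cGAMP and 4.02, 2.97 and 3.62 CPM in untreated cells. It had 10.5, 9.28 and 8.90 CPM at 20 μM, and 20.9, 21.1 and 13.1 CPM at 50 μM. The 4 groups do not overlap. The rise with cGAMP was 3.91 ± 0.17 on the log2 scale, or 15.0-fold (adjusted p = 6.97e-12). With chlorquinaldol it was 1.43 ± 0.18 at 20 μM (adjusted p = 4.5e-06) and 2.37 ± 0.17 at 50 μM (adjusted p = 2.29e-09), and 50 μM was above 20 μM by 0.94 ± 0.15 (adjusted p = 0.000131). HERC6 was the one gene of the 6 that was called higher at the higher dose with no overlap of libraries.

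USP18, the protease, had 251, 255 and 304 CPM with cGAMP and 9.999, 9.53 and 9.57 CPM in untreated cells, a log2 change of 4.80 ± 0.19 (adjusted p = 2.18e-12). At 20 μM it had 46.0, 49.6 and 38.2 CPM, and at 50 μM 52.1, 61.2 and 32.2 CPM. The libraries of the 2 doses overlap, with means of 44.6 ± 5.86 CPM at 20 μM and 48.5 ± 14.8 CPM at 50 μM, and all of them are above the untreated ones (9.70 ± 0.259 CPM). The log2 change was 2.20 ± 0.18 at 20 μM (adjusted p = 3.53e-08), the largest of the 6 genes at that dose, and 2.32 ± 0.18 at 50 μM (adjusted p = 5.76e-09). In the annotation, 312 of its 2030 windows of 100 bases (15.4%) also occur in USP41, a near copy, so reads there could have been split. USP41 had 0 counts in 11 libraries and 1 in the other. Windows were taken from the longest transcript of each gene, and none from the other 5 genes occurs in a transcript of another gene. ISG15 shares 36 exonic bases with an opposite-strand pseudogene, and UBA7 shares 109 with the microRNA gene MIR5193, both listed at 0 in all 12 libraries.

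**Figure D2:**
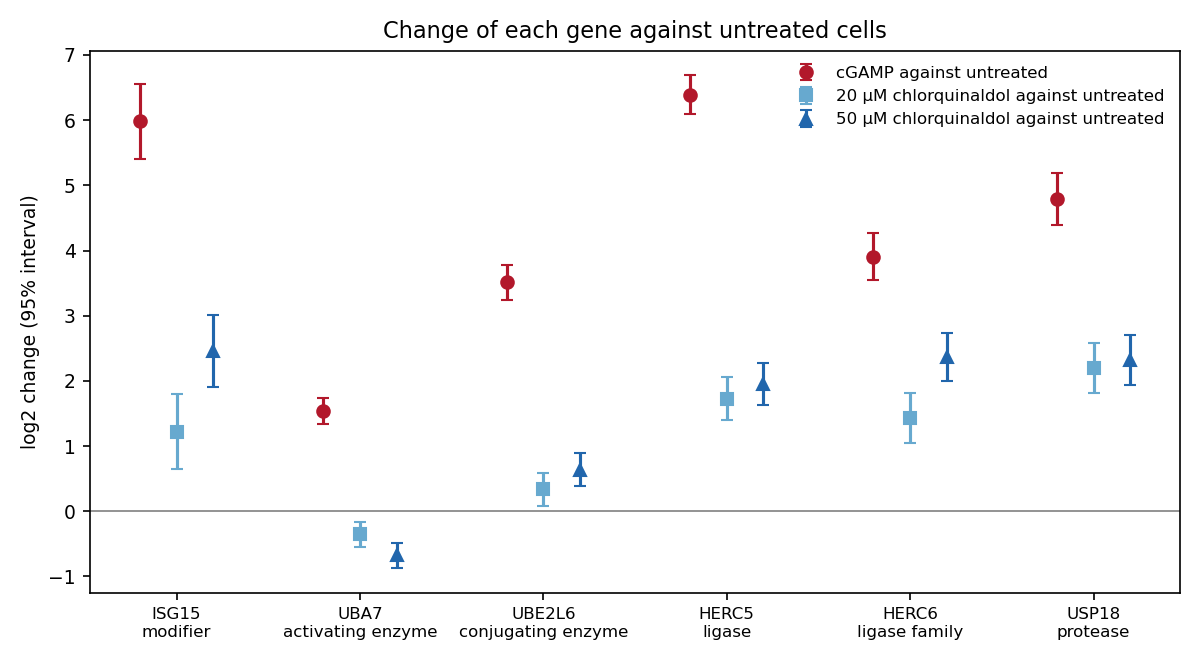
Log2 change of each gene against untreated cells with its 95% interval, for cGAMP and for 20 μM and 50 μM chlorquinaldol (edgeR, n = 3 per group, shared untreated libraries). HERC5 and ISG15 have the largest cGAMP changes, 6.39 and 5.98, and UBA7 is the one gene below 0 with chlorquinaldol.

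Between the doses, 3 of the 6 genes were called: ISG15 and HERC6 higher and UBA7 lower at 50 μM than at 20 μM. Of all tested genes 38.1% were called in this comparison (19.1% higher and 19.0% lower). The other 3 missed the threshold. UBE2L6 differed by 0.30 on the log2 scale (95% interval 0.05 to 0.55, adjusted p = 0.0588), HERC5 by 0.23 (-0.05 to 0.50, adjusted p = 0.179) and USP18 by 0.12 (-0.22 to 0.47, adjusted p = 0.591). A missed threshold does not show equal levels, and the intervals for HERC5 and USP18 include 0. Without replicate 3 at 50 μM all 6 genes were called, with log2 differences of 0.48 for UBE2L6 (adjusted p = 0.000831), 0.40 for HERC5 (adjusted p = 0.0134) and 0.37 for USP18 (adjusted p = 0.0171). That library was singled out for its low levels of these same genes, so leaving it out raises their 50 μM means. The added calls are therefore no support for a dose difference. Without that library the changes at 50 μM against untreated cells were 2.83 for ISG15, -0.58 for UBA7, 0.86 for UBE2L6, 2.17 for HERC5, 2.63 for HERC6 and 2.61 for USP18, all called.

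The cGAMP libraries were above the chlorquinaldol libraries of either dose for all 6 genes, and all 6 were called (55.6% of tested genes were called against 20 μM and 66.7% against 50 μM, with 28.0% higher and 27.6% lower with cGAMP in the first case and 34.7% higher and 32.0% lower in the second). The cGAMP and chlorquinaldol libraries of 61.7% of tested genes at 20 μM and 69.4% at 50 μM did not overlap either. Doses of unlike compounds are not matched, so these folds describe the samples as treated. Against 20 μM, ISG15 was 27.1-fold and HERC5 25.3-fold higher with cGAMP (adjusted p = 7.97e-11 and 7.02e-14), while USP18 was 6.06-fold, HERC6 5.57-fold and UBA7 3.72-fold higher. Against 50 μM the folds were 21.6 for HERC5 (adjusted p = 7.57e-14), 11.5 for ISG15, 7.35 for UBE2L6, 5.57 for USP18, 4.65 for UBA7 and 2.90 for HERC6 (adjusted p = 3.4e-08). HERC5 and HERC6 thus sit at opposite ends at 50 μM.

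To set the genes side by side, levels per transcript length were taken from the deposited FPKM (fragments per kilobase of transcript, scaled to depth). In cGAMP cells ISG15 was the most abundant at 1104 ± 133 FPKM, followed by UBE2L6 at 394 ± 32.3, UBA7 at 187 ± 13.4, USP18 at 164 ± 15.5, HERC5 at 96.9 ± 4.01 and HERC6 at 16.1 ± 1.04 FPKM. The libraries of UBA7 and USP18 overlap there and the other neighbours do not. In untreated cells UBA7 came first at 62.6 ± 3.12 FPKM, before UBE2L6 at 35.9 ± 1.83, ISG15 at 18.3 ± 2.23 and USP18 at 6.30 ± 0.699 FPKM, with HERC5 (1.18 ± 0.199) and HERC6 (1.15 ± 0.290) last, their libraries overlapping. The untreated cells therefore held more transcript of the first 2 enzymes than of ISG15. At 20 μM UBA7 (52.8 ± 7.27 FPKM), UBE2L6 (45.0 ± 1.33) and ISG15 (42.4 ± 9.64) could not be ordered, since the libraries of neighbours overlap, and USP18 followed at 27.8 ± 3.08, HERC5 at 4.05 ± 0.447 and HERC6 at 2.95 ± 0.200 FPKM. At 50 μM ISG15 had the highest mean (90.4 ± 37.0 FPKM), before UBE2L6 (50.6 ± 9.49), UBA7 (40.5 ± 5.19) and USP18 (27.7 ± 8.10), each overlapping the next. HERC6 (5.09 ± 0.934 FPKM) had a higher mean than HERC5 (4.24 ± 0.745) there, with overlap.

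Ratios within a library show how unevenly the genes changed. The FPKM of ISG15 over that of its activating enzyme UBA7 was 5.53, 6.05 and 6.12 with cGAMP, 0.252, 0.310 and 0.313 in untreated cells, 0.954, 0.870 and 0.607 at 20 μM and 2.91, 2.78 and 1.14 at 50 μM. None of these groups overlap. From the mean log ratios, ISG15 over UBA7 was 20.3-fold higher with cGAMP, 2.74-fold higher at 20 μM and 7.22-fold higher at 50 μM than in untreated cells. Over the conjugating enzyme UBE2L6, ISG15 stood at 2.80 ± 0.138 with cGAMP, 0.507 ± 0.0374 untreated, 0.941 ± 0.200 at 20 μM and 1.73 ± 0.445 at 50 μM, again without overlap.

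The ratio of modifier to protease was lower at 20 μM than in untreated cells and overlapped with them at 50 μM. ISG15 over USP18 was 6.20, 7.28 and 6.76 with cGAMP, 2.24, 3.37 and 3.21 in untreated cells, 1.86, 1.27 and 1.44 at 20 μM and 3.50, 3.45 and 2.59 at 50 μM. At 20 μM every library was below every untreated one (0.521-fold), and at 50 μM the libraries overlap with the untreated ones (1.09-fold) and lie above those at 20 μM (2.09-fold). The protease over the activating enzyme, USP18 over UBA7, was 0.876 ± 0.0396 with cGAMP, 0.101 ± 0.0108 untreated, 0.539 ± 0.133 at 20 μM and 0.692 ± 0.218 at 50 μM. Its 2 chlorquinaldol groups overlap each other and both are above untreated cells.

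The neighbouring ligases also diverged. HERC5 over HERC6 was 5.74, 6.22 and 6.09 with cGAMP, 0.917, 1.10 and 1.10 in untreated cells, 1.14, 1.53 and 1.47 at 20 μM and 0.757, 0.865 and 0.889 at 50 μM. With cGAMP the HERC5 transcript therefore prevailed in every library (5.81-fold above the untreated ratio), and at 50 μM HERC6 did (0.61-fold of the ratio at 20 μM). ISG15 over HERC5 overlapped between treated and untreated cells for all 3 treatments, at 11.4 ± 1.26 with cGAMP, 16.1 ± 4.81 untreated, 10.8 ± 3.76 at 20 μM and 20.8 ± 6.11 at 50 μM, although on CPM the cGAMP libraries all lay below the untreated ones. In all, 48 comparisons of 8 ratios were made. A two-sided exact permutation test of 3 against 3 cannot go below p = 0.1, so none could pass 0.05, and the ratios are given by their overlap alone.

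**Figure D3:**
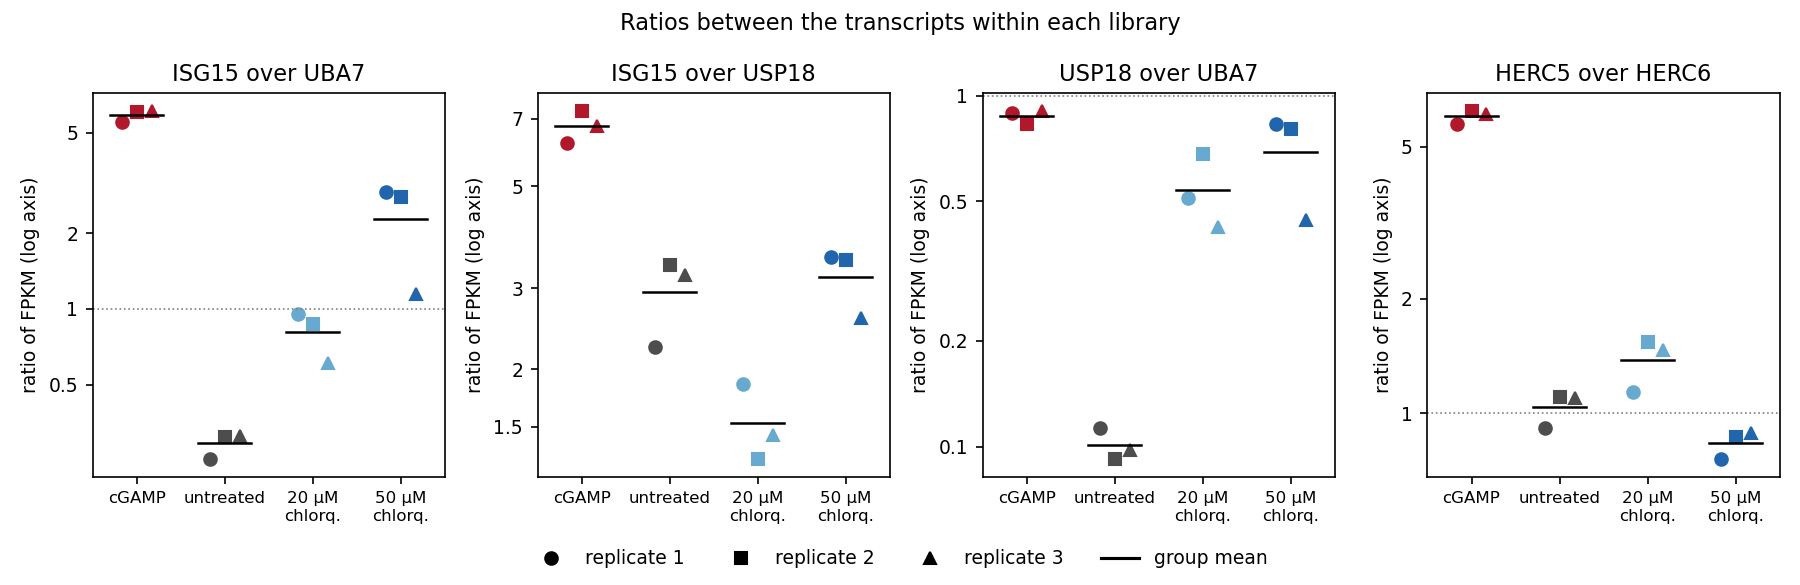
Ratio of FPKM (log axis) within each library for 4 pairs of genes; symbols are replicates, lines are group means (n = 3) and the dotted line marks equal levels. ISG15 exceeds UBA7 with cGAMP and at 50 μM but not in untreated cells or at 20 μM, and HERC5 over HERC6 ranges from 0.757 at 50 μM to 6.22 with cGAMP.

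Among themselves, 5 of the 6 genes kept close company over the 12 libraries, with Pearson correlations of log2 CPM of 0.89 to 0.98, as a description, since the points fall into 4 groups and share libraries. UBA7 correlated with the others at 0.61 to 0.90 over all 12 libraries. Over the 9 libraries without cGAMP its correlations were -0.91 to -0.77, while those among the other 5 genes were 0.85 to 0.99, the highest being HERC5 with USP18.

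The genes whose profile was most like each of the 6 over the 12 libraries were listed by Pearson's r of log2 CPM. With libraries in 4 groups, r reflects chiefly the group means. For ISG15 they were MX1, an antiviral GTPase (r = 0.997), SHFL, an inhibitor of viral frameshifting (r = 0.997), and SHISA5 (r = 0.997). HERC6 was closest to IFI44 (r = 0.998), EPSTI1 (r = 0.998) and the ubiquitin ligase DTX3L (r = 0.997), and HERC5 to DDX60L (r = 0.995), the antiviral enzyme RSAD2 (r = 0.995) and the nuclear body protein SP110 (r = 0.994). UBE2L6 was close to APOL1 (r = 0.994) and GCH1 (r = 0.993), and USP18 to ENPP2 (r = 0.993), DDX60 (r = 0.990) and IFIT3 (r = 0.990). UBA7 had PHACTR4 (r = 0.992), the immunoproteasome subunit PSMB9 (r = 0.989) and ENDOD1 (r = 0.989). The names depend on the measure: ranked by Spearman's rho, 1 of the 3 names for ISG15 and none of those for the other 5 genes recurred.

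Interferon is the textbook inducer of all 6 genes, and its own transcripts differed sharply between the treatments. IFNB1 had 229, 217 and 262 counts in the cGAMP libraries, 0, 3 and 0 in untreated cells, 2, 2 and 0 at 20 μM and 3, 2 and 1 at 50 μM. IFNL1, a type III interferon, had 19, 22 and 25 counts with cGAMP, none in untreated cells or at 50 μM, and 1 in all at 20 μM. The 10 interferon genes searched summed to 776 counts with cGAMP, 3 in untreated cells, 5 at 20 μM and 7 at 50 μM. They were IFNB1, IFNA1, IFNA2, IFNE, IFNK, IFNW1, IFNG, IFNL1, IFNL2 and IFNL3. Other interferon alpha genes were not searched, so the sums are not totals of all interferon transcripts. With cGAMP both IFNB1 (adjusted p = 8.19e-11) and IFNL1 (adjusted p = 2.46e-05) were called. At 50 μM IFNB1 was not called (adjusted p = 0.362), and at this depth a difference of a few counts was not detectable. Without untreated replicate 2, which holds all 3 counts of that group, IFNB1 was called at 50 μM (adjusted p = 0.025). Leaving that library out sets the untreated counts to 0, so this call is no support for a difference.

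Of 11 genes of the interferon receptor, JAK-STAT signalling and IRF factors, 5 rose and none fell with cGAMP, 4 rose and 1 fell at 20 μM, and 8 rose and 1 fell at 50 μM. Here and in the lists that follow, counts stand against 23.3%, 55.1% and 66.9% of all tested genes called in the same comparisons. The 5 of 11 called at 20 μM became 4 to 7 over the alternatives that keep the call rule, on both sides of the share of all genes. IRF7, the factor that amplifies interferon transcription, stood at 153 ± 16.9 CPM with cGAMP, 10.9 ± 1.83 untreated, 38.1 ± 8.65 at 20 μM and 88.0 ± 21.5 CPM at 50 μM. It rose in all 3 comparisons, by 3.81, 1.81 and 3.02 on the log2 scale (adjusted p = 6.46e-11, 5.16e-07 and 3.32e-10). IRF9 also rose in all 3, at 138 ± 10.2, 24.7 ± 3.34, 51.7 ± 8.90 and 93.4 ± 13.9 CPM in the same order of groups. STAT2, which binds IRF9 in the complex, rose 5.22-fold with cGAMP (adjusted p = 4.79e-12) and was not called with chlorquinaldol, at 92.7 ± 9.04 CPM with 20 μM and 109 ± 10.8 CPM with 50 μM against 98.2 ± 6.14 CPM untreated, although at 50 μM it was called without replicate 3 of that dose or without either of 2 of the 20 μM libraries. The receptor chain IFNAR1 had 72.1 ± 2.72 CPM with cGAMP, against 77.1 ± 1.77 CPM untreated, and rose to 132 ± 2.83 CPM at 20 μM and 208 ± 15.3 CPM at 50 μM (adjusted p = 1.35e-07 and 2.58e-11). IFNAR2, the chain that USP18 binds, rose by 0.35 at 20 μM and 0.57 at 50 μM on the log2 scale (adjusted p = 0.0015 and 8.81e-06). SKP2, a ubiquitin ligase subunit that targets USP18 protein for degradation, fell to 20.1 ± 0.845 CPM at 50 μM, against 47.2 ± 1.19 CPM untreated (adjusted p = 9.8e-09).

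Other enzymes reported to add or remove ISG15 gave a mixed picture. Of 8, 2 rose and 2 fell with cGAMP, 1 rose and 2 fell at 20 μM, and 5 rose and 3 fell at 50 μM, with median log2 changes of -0.10, -0.19 and 0.24, against -0.05, -0.00 and -0.03 over all tested genes. The 3 of 8 at 20 μM became 2 to 5 over the alternatives that keep the call rule, on both sides of the 55.1% of all genes. TRIM25, a ligase for RIG-I ubiquitin chains and for ISG15, rose with cGAMP to 473 ± 29.6 CPM, against 170 ± 11.0 CPM untreated (log2 change 1.48 ± 0.10, adjusted p = 5.69e-09). With chlorquinaldol it had 142 ± 11.7 CPM at 20 μM and 206 ± 30.3 CPM at 50 μM, on either side of the untreated level, and both calls (adjusted p = 0.0466 and 0.0218) were lost in alternatives, the first in 19 and the second in 5 of the 22 that keep the same call rule. USP5, which disassembles free ubiquitin chains, fell to 22.1 ± 1.43 CPM at 20 μM and 16.3 ± 1.24 CPM at 50 μM, against 35.3 ± 2.67 CPM untreated (adjusted p = 4.68e-06 and 7.22e-09). USP2 rose to 27.8 ± 1.47 CPM at 20 μM and 28.9 ± 7.04 CPM at 50 μM, against 16.9 ± 1.95 CPM untreated (adjusted p = 0.000496 and 0.000174). USP16, reported to cleave ISG15, rose at 50 μM by 0.50 on the log2 scale (adjusted p = 4.27e-05), and its cGAMP call (adjusted p = 0.0429) was lost in 10 of these 22 alternatives. USP13 and USP21 fell at 50 μM by 0.48 and 0.38 (adjusted p = 0.00123 and 0.000776) and were also called lower with cGAMP (adjusted p = 0.0395 and 0.0125), the USP13 call being lost in 17 alternatives and that of USP21 in 4. ARIH1 and USP14 rose by 0.27 and 0.20 at 50 μM (adjusted p = 0.00371 and 0.0238), and neither was called in the FPKM fits. The USP14 call was also lost without untreated replicate 2 (adjusted p = 0.111) and without untreated replicate 3 (adjusted p = 0.0687).

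The HERC relatives that are not known ISG15 ligases had cGAMP changes between -0.39 and 0.28 on the log2 scale. Of 4, 1 rose and 1 fell with cGAMP and 2 rose and 1 fell at each dose, against 23.3%, 55.1% and 66.9% of all tested genes called. HERC2, a large ligase of DNA repair, fell to 92.5 ± 0.787 CPM with cGAMP, 71.1 ± 8.00 CPM at 20 μM and 51.6 ± 3.64 CPM at 50 μM, against 122 ± 5.93 CPM untreated (adjusted p = 0.00238, 6.95e-07 and 1.03e-09). HERC1 rose to 143 ± 8.01 CPM at 20 μM and 190 ± 20.8 CPM at 50 μM, against 113 ± 6.84 CPM untreated (adjusted p = 0.0024 and 5.35e-07). HERC4 rose by 0.40 at 20 μM and 0.58 at 50 μM on the log2 scale (adjusted p = 0.000528 and 8.35e-06), and its cGAMP call of 0.28 (adjusted p = 0.0207) was lost in 6 alternatives. HERC3 was not called in any of these comparisons, at log2 changes of -0.08, 0.20 and -0.00. The largest of these changes, that of HERC2 at 50 μM (-1.24), is smaller in size than those of HERC5 and HERC6 at that dose.

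Both subunits of the receptor for free ISG15 rose with chlorquinaldol, and neither was called with cGAMP. ITGB2 had 1064 ± 99.4 CPM with cGAMP, 1077 ± 1.99 CPM untreated, 1406 ± 66.3 CPM at 20 μM and 1831 ± 140 CPM at 50 μM (adjusted p = 0.917, 0.00117 and 5.42e-07 against untreated cells). ITGAL had 173 ± 22.2 CPM with cGAMP, 203 ± 0.481 CPM untreated, 281 ± 19.9 CPM at 20 μM and 286 ± 16.0 CPM at 50 μM, with adjusted p = 0.0766, 0.000271 and 0.000107. With cGAMP all 3 ITGAL libraries were below the untreated ones, and 4 alternatives called that difference.

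**Figure D4:**
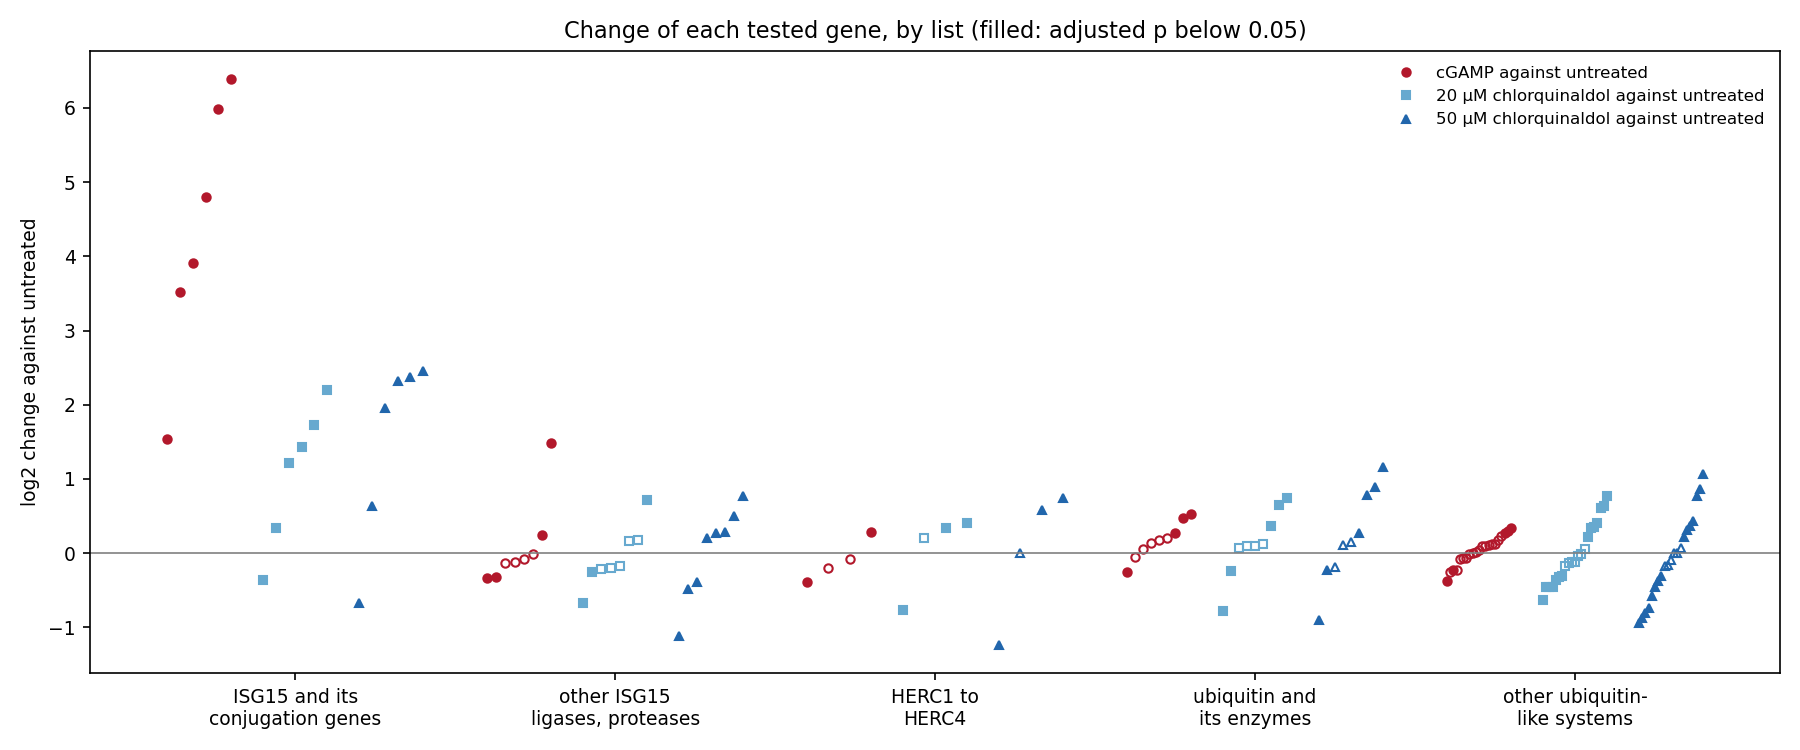
Log2 change against untreated cells of every tested gene of 5 lists, for cGAMP and for 20 μM and 50 μM chlorquinaldol; filled symbols are called at adjusted p below 0.05 and open ones are not. The cGAMP changes of ISG15 and its conjugation genes run from 1.54 to 6.39, and outside this list TRIM25 at 1.48 is the one cGAMP change above 1.

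Among 9 ubiquitin genes and closest enzyme relatives, the cGAMP change largest in size was 0.52 on the log2 scale, that of the conjugating enzyme UBE2E1. Of these 9, 3 rose and 1 fell with cGAMP, 3 rose and 2 fell at 20 μM, and 4 rose and 2 fell at 50 μM, the shares at both doses being near the 55.1% and 66.9% of all tested genes. UBE2L3, the nearest relative of UBE2L6, rose by 0.27 on the log2 scale with cGAMP (adjusted p = 0.0104). With chlorquinaldol it was called lower, at 103 ± 6.48 CPM with 20 μM and 104 ± 5.02 CPM with 50 μM, against 121 ± 3.17 CPM untreated. Under an unchanged call rule these calls were lost in 4 and 8 alternatives. UBE2E1, a relative that also conjugates ubiquitin, rose in all 3 comparisons, by 0.52, 0.36 and 0.79 (adjusted p = 0.000365, 0.0021 and 4.64e-07). The polyubiquitin gene UBB fell to 421 ± 21.8 and 355 ± 44.4 FPKM at 20 μM and 50 μM, against 727 ± 18.4 FPKM untreated (adjusted p = 1.07e-06 and 9.55e-08, tested on the counts).

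Among 22 genes of other ubiquitin-like systems (SUMO, NEDD8, UFM1, URM1, FAT10 and ATG12), 21 were tested and UBD, which encodes FAT10, was listed at 0 in all libraries. With cGAMP 3 rose and 2 fell, at 20 μM 7 rose and 7 fell, and at 50 μM 7 rose and 8 fell. The share called with cGAMP was near the 23.3% of all tested genes, and those with chlorquinaldol were not far above 55.1% and 66.9%. ATG12, the autophagy modifier, rose in all 3, by 0.34, 0.77 and 1.06 on the log2 scale (adjusted p = 0.00405, 2.82e-07 and 1.82e-09). The 2 subunits of the NEDD8-activating enzyme went opposite ways with chlorquinaldol, NAE1 falling by 0.46 and 0.87 (adjusted p = 0.00104 and 1.01e-06) and UBA3 rising by 0.61 and 0.77 (adjusted p = 2.75e-06 and 8.43e-08). The NEDD8-conjugating enzyme UBE2F fell by 0.64 and 0.94 at the 2 doses (adjusted p = 6.16e-06 and 3.8e-08).

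Of 17 genes whose proteins are reported ISG15 substrates, 8 rose and none fell with cGAMP, 7 rose and 1 fell at 20 μM, and 11 rose and 2 fell at 50 μM. Against all tested genes the share called was higher with cGAMP (23.3% of all) and near at 50 μM (66.9%). At 20 μM, with the alternatives that keep the call rule included, 8 to 12 of the 17 were called, on both sides of the 55.1% of all genes. Several of them are interferon targets themselves. The RNA sensor RIGI rose to 271 ± 10.3 CPM with cGAMP, 20.5 ± 1.41 CPM at 20 μM and 36.5 ± 7.75 CPM at 50 μM, against 6.49 ± 0.740 CPM untreated (adjusted p = 1.76e-14, 5.91e-08 and 8.88e-11). CHMP5, a subunit of the membrane-scission complex used in virus budding, rose to 304 ± 10.9, 155 ± 14.0 and 191 ± 7.32 CPM, against 87.7 ± 4.77 CPM untreated (adjusted p = 1.42e-11, 2.08e-07 and 1.67e-09). STING1, which encodes the receptor of cGAMP, fell with chlorquinaldol to 173 ± 4.03 CPM at 20 μM and 92.7 ± 7.98 CPM at 50 μM, against 246 ± 11.8 CPM untreated (adjusted p = 3.82e-05 and 1.09e-10).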

How the data were processed

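RNA was captured with oligo(dT) beads and read on the BGI DNBSEQ platform (labels' protocols). The authors deposited 2 tables: estimated counts per gene, made with RSEM on GRCh38 per the submitters' processing notes, and FPKM of the same genes. The same notes name DESeq2 1.26.0. Library strand is not given in the sources used here, so reads of overlapping antisense genes cannot be told apart. Of the deposited estimated counts above 0, 42.307% are not whole numbers (tolerance 1e-09). They were rounded, and 326 unannotated entries holding 0.2203% of counts were left out of tests and library sizes. Depth was 18914542 to 18979948 with cGAMP, 18910085 to 19023005 untreated, 17620929 to 18926562 at 20 μM and 19011578 to 19222607 at 50 μM. Intervals and tests have no molecular identifiers behind them.

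In R 4.3.3, edgeR 4.0.16 fitted 1 quasi-likelihood model to all 12 libraries by group (8 residual degrees of freedom), with filterByExpr at a minimum count of 10, TMM factors of 0.9048 to 1.0606 and Benjamini-Hochberg adjustment over 16628 genes. The steps were tested on simulated counts. Ratios used the deposited FPKM. Likeness was Pearson's r of log2 CPM, prior count 2. The 24 alternatives left out each of the 12 libraries in turn, changed the test (DESeq2 1.42.0, or limma 3.58.1 on log2(FPKM + 1), with a pseudocount of 0.1, and on every FPKM gene), the scaling (RLE or upper quartile), the filter (none, or 5 CPM in 3 libraries), the model (a replicate block, or the compared groups alone) or the call (adjusted p of 0.01, or a minimum of 2-fold). All 6 genes, all genes of the ligase and protease, HERC and receptor lists, and up to 3 genes per direction and comparison with the smallest adjusted p of each other list were eligible to be named, with IFNB1, USP41 and the 3 genes most like each of the 6. A few further list genes that are named, such as STAT2 and UBE2L3, were chosen after their values were seen. Some genes that these rules select are not reported here. The genes and lists were chosen with earlier results of these data known.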

Additional observations from a re-analysis of the deposited data

How the results depend on the processing

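Across 24 alternatives, 840 log2 changes of the 6 genes kept their side of the threshold, 17 lost the call, 7 gained it and no called change reversed. The count of these genes called stayed at 6 in every alternative with cGAMP against untreated cells and against either dose. At 50 μM against untreated cells it was 6, except 4 with a minimum of 2-fold, and at 20 μM it was 4 to 6. Between the doses 3 genes were called, against 1 with a minimum of 2-fold and 6 without replicate 3 at 50 μM, and 2 to 6 over the libraries left out. UBE2L6 was called between the doses with DESeq2 (adjusted p = 0.0347), RLE factors (0.0403), no filter (0.00847) and the 5 CPM filter (0.0485). UBE2L6 at 20 μM was lost with all FPKM genes (adjusted p = 0.0905), and UBA7 between the doses likewise (adjusted p = 0.0626). The uncalled USP18 difference between doses ranged from -0.06 to 0.37, so its direction turned. On CPM the 48 ratio comparisons kept their direction, and the overlap of libraries changed in 5: ISG15 over HERC5 (cGAMP against untreated) and HERC5 over USP18 (both doses against untreated) no longer overlapped, and HERC5 over HERC6 (20 μM against untreated) and USP18 over UBA7 (cGAMP against 50 μM) then did. Counts of other lists moved by over 1.5 times in 92 cases and stayed within it in 1060, for example, under an unchanged call rule, 1 to 4 ISG15 ligases and proteases and 0 to 3 HERC relatives called with cGAMP. No called change of another gene reversed. Every likeness trio changed with the measure. Replicate numbers did not pair the libraries (18 pairs, correlations -0.113 to 0.067, own number highest in 6). With a replicate block 6, 6, 6, 3, 6 and 6 of these genes were called in the 6 comparisons, as without it. Depth limits IFNB1 and IFNL1 outside cGAMP. The causes were not tested.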
